A study of Mus musculus with 10 samples.

Results

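Chemokines and their receptors were examined in liver RNA of mice given AdVEGF or AdCMV. The genes were chosen by symbol: all Ccl, Cxcl, Ccr and Cxcr genes with a number, together with Cx3cl1, Cx3cr1, Xcl1 and Xcr1. This gave 57 genes, 39 chemokines and 18 receptors, of 24016 transcripts in the table. The AdVEGF group had 5 mice that received an adenovirus expressing VEGF-A165, a secreted growth factor of blood vessels, under the CMV promoter, which is active in many cell types. The AdCMV group had 5 mice that received an empty adenovirus with the same promoter and no transgene. All were young adult male C57BL/6 mice injected into the tail vein, and the PBS-perfused liver was collected on day 6. Both groups therefore carried an adenoviral vector, and no liver of a mouse without vector was among the samples. Each library was made from 1 mouse, labelled as a biological replicate, and rRNA was removed from the total RNA before sequencing.

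Chemokines are small secreted proteins that guide leukocytes along concentration gradients by binding G protein-coupled receptors on their surface. They are named by the spacing of their first cysteines (CC, CXC, CX3C and XC). Inflammatory chemokines are made on demand, many of them after interferon or NF-kappaB activation, whereas homeostatic chemokines such as Cxcl12 and Ccl19 are made continuously and direct resting cells. In the liver, Kupffer cells, sinusoidal endothelial cells, stellate cells and hepatocytes are all known sources, and after adenoviral vectors the interferon-induced chemokines are known to attract T and NK cells.

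The values are RPKM, read numbers corrected for transcript length and for the tags mapped in each library, so that levels of different genes can be compared per length. A library held 5758960 to 13494000 mapped tags in the AdCMV group and 5596560 to 8133950 in the AdVEGF group, as recovered from the steps of the RPKM values. For a transcript of 1 kb, 3 reads give 0.222 to 0.536 RPKM, depending on the library. The major urinary protein (Mup) genes, which hepatocytes express at very high levels, took 18.004% to 50.5% of the reads in AdCMV mice and 7.84% to 28.6% in AdVEGF mice. Over all genes tested, the median log2 fold change was 0.38, and it was -0.0044 after median-ratio scaling between libraries, so both estimates are given where they differ in the call. Because 0.1 RPKM was added before the logarithm, the fold changes of genes at low levels are understated. All 8 hepatocyte markers listed were expressed, with a summed level of 16020 to 20805 RPKM in AdCMV mice and 28785 to 36222 RPKM in AdVEGF mice. Called higher were 2 of them, Alb and Apoa1, where 13% of all genes tested were. Neither was called after median-ratio scaling. Mouse Vegfa, which counts transgene reads only where they align to the mouse transcript, differed by 0.82 on the log2 scale (adjusted p = 0.00487, limma). In whole liver, fewer cells of a type and less RNA per cell cannot be told apart.

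The DNA before the start site is shown for 4 genes on which the results turn: Cxcl9 and Cxcl10, the most abundant interferon-induced chemokines, Cxcl2, a neutrophil chemokine, and Cxcr4, the receptor with the largest difference. The sequences are the 250 bases before the RefSeq start in GRCm38.p6, 5′ to 3′ on the strand of the gene, and capitals mark matches to the motifs searched. They lie at chr5:92328080-92328329 (minus strand) for Cxcl9, chr5:92348890-92349139 (minus) for Cxcl10, chr5:90903649-90903898 (plus) for Cxcl2 and chr1:128592300-128592549 (minus) for Cxcr4.
Cxcl9: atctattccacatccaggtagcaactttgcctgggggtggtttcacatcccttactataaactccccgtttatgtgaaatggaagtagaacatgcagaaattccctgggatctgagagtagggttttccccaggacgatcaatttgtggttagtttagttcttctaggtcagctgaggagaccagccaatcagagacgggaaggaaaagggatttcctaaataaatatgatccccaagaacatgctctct
Cxcl10: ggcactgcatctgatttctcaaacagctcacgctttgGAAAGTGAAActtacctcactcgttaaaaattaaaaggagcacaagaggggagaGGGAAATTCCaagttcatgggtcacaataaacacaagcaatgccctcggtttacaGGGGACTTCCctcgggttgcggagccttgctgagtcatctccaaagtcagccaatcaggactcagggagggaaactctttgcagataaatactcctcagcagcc
Cxcl2: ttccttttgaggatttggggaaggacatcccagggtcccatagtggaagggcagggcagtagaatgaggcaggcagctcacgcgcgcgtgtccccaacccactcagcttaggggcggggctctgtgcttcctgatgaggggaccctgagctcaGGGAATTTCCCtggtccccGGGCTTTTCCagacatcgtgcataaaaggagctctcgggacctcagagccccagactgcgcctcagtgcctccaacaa
Cxcr4: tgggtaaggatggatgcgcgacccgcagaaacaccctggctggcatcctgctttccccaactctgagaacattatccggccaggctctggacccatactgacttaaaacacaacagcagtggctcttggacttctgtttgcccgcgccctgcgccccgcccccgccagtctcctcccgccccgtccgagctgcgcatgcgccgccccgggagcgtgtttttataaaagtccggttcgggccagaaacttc

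The motifs were an interferon response element (ISRE, GAAA and GAAA with any 2 bases between), a kappaB-like element (GGG and TTCC with any 3 bases between) and an interferon-gamma element (GAS, TTC and GAA with any 3 bases between), each searched on both strands of windows of 300 bases, 250 before and 50 after the start. The Cxcl10 window held 1 ISRE, at -213 to -204 from the start, and 2 kappaB-like matches, at -159 to -150 and at -104 to -95. The Cxcl2 window held 3 kappaB-like matches, at -97 to -88, at -78 to -69 and, on the other strand and overlapping the first, at -96 to -87. Neither the Cxcl9 nor the Cxcr4 window held any of the 3 patterns of letters. A window was given for 41 of the 57 genes. The ISRE pattern was in the windows of 3 of these 41 (Ccl19, Cxcl10 and Cxcl14) and in 3.44% of all 32851 windows. The kappaB-like pattern was in 9 of the 41, among them Cxcl1, Cxcl2, Cxcl3, Cxcl10 and Ccl20, and in 5.56% of all windows. The GAS pattern was in 3 of the 41 and in 8.30% of all windows. A gene can have several windows, whereas the share of all windows counts each window once. A match is a pattern of letters and was not tested as a binding site. A window without a match can still hold sequences close to these fixed patterns, and bases outside the windows were not searched.

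Of the 57 genes, 41 exceeded a mean of 0.5 RPKM in 1 group or both and were tested, 28 chemokines and 13 receptors. With limma, a Benjamini-Hochberg adjusted p under 0.05 over all 13933 genes tested and a log2 difference beyond 1 or -1, 8 of the 41 were lower in AdVEGF mice than in AdCMV mice: Cxcl9, Cxcl10, Cxcl11, Ccl12, Ccl8, Ccl3, Ccl4 and Cxcl2. All 8 were chemokines. They made up 19.5% of the members tested, where 1.54% of all genes tested were called lower. Called higher were 3 of the 41, Cxcr4, Ccl24 and Ccl21b, or 7.32%, where 13% of all genes tested were called higher. The median log2 fold change was -0.47 over the 28 chemokines and 0.26 over the 13 receptors, beside 0.38 over all genes. It was above 0 for 20 of the 41 members, where this held for 81.1% of all genes tested.

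Scaling between libraries moved the counts. After median-ratio scaling 11 members were lower, with Ccl2, Ccl5 and Ccl7 in addition, and 2 were higher, without Ccl21b, where 3.14% and 7.77% of all genes tested were called. With library totals that left out the Mup genes, 13 were lower, with Cxcl1 and Cxcr6 beside those 11, and the same 2 were higher, beside 4% and 6.98% of all genes tested. The AdVEGF values lay below every AdCMV value for 7 members and above for 3, where this held for 1.29% and 14.3% of all genes tested.

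**Figure D1:**
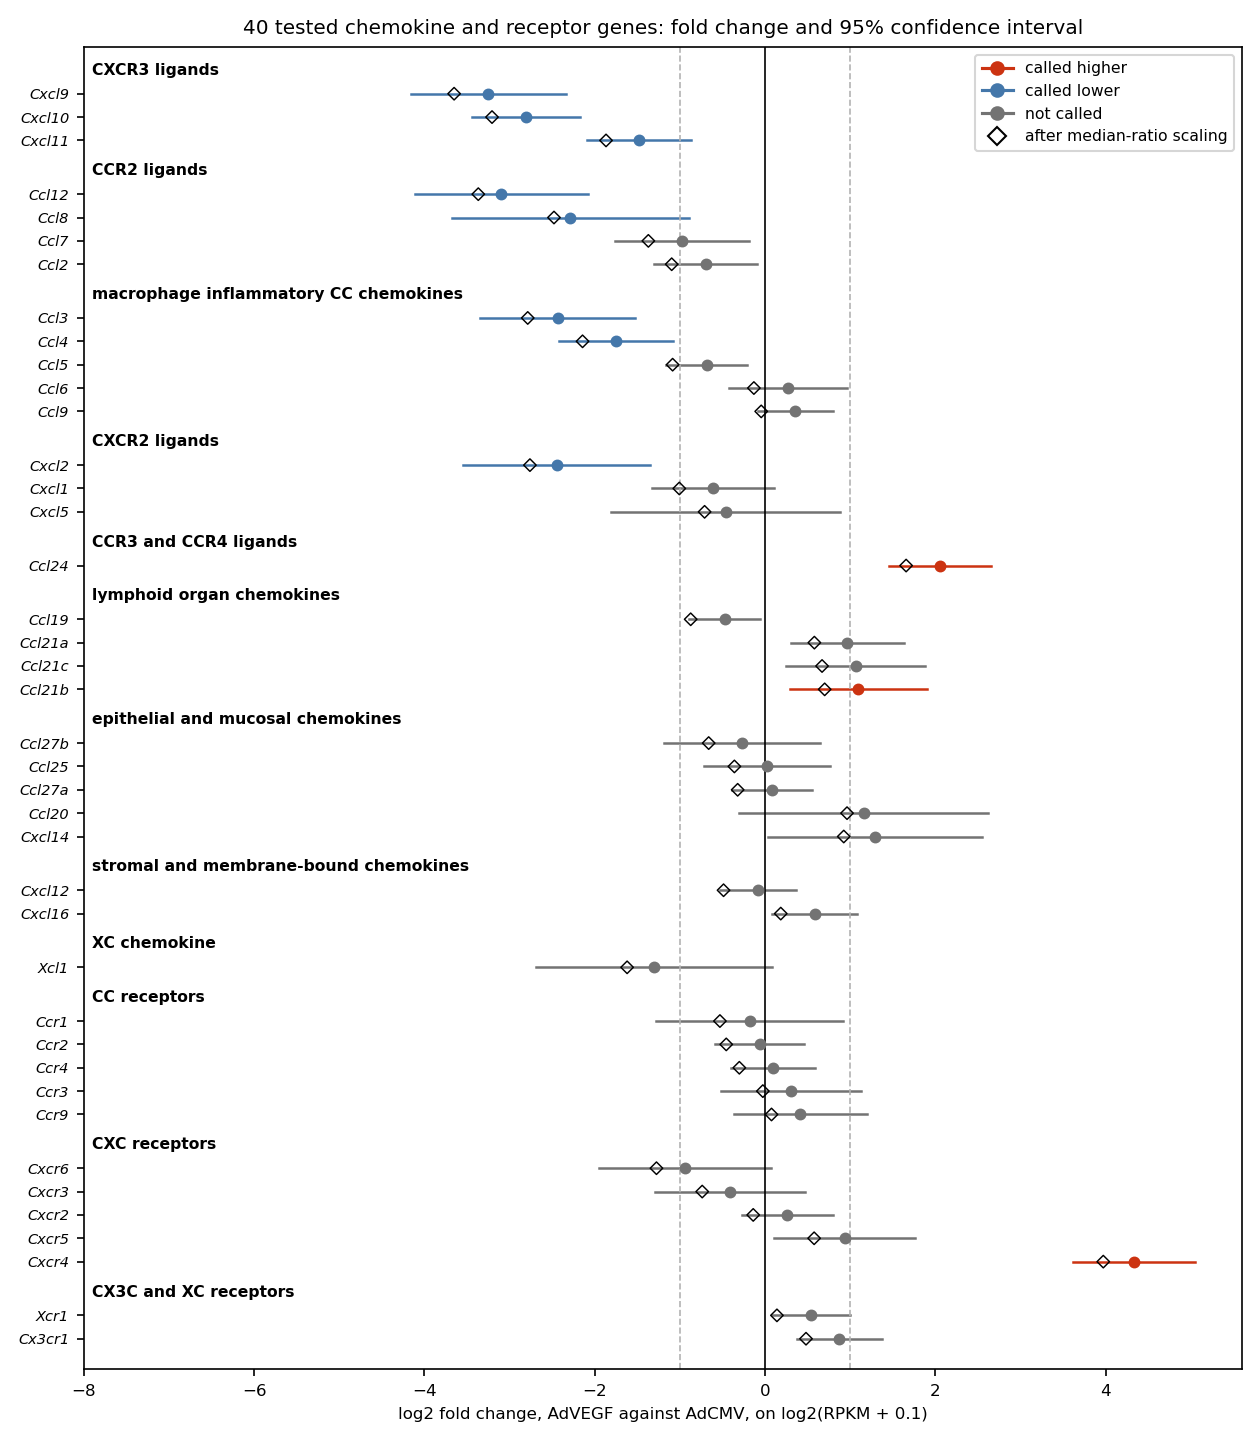
Log2 fold change of 40 tested genes, AdVEGF against AdCMV on the log2(RPKM + 0.1) scale (x axis), grouped by role (y axis). Points are limma estimates with 95% confidence intervals (n = 5 mice per group), open diamonds are the estimates after median-ratio scaling, and dashed lines mark 1 and -1. The CXCR3 ligands lie at -1.48 to -3.25, and Cxcr4, at 4.33, lies farthest to the right.

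All 3 ligands of CXCR3, a receptor of activated T cells and NK cells, were called lower in the AdVEGF group, also after median-ratio scaling. Of all genes tested, 1.54% were called lower, and 3.14% were after median-ratio scaling. The 3 ligands are classical interferon-gamma targets. Cxcl9 was measured at 153, 143, 224, 154 and 129 RPKM in AdCMV replicates 1 to 5 and at 39.1, 22.6, 28.4, 4.20 and 11.4 RPKM in AdVEGF replicates 1 to 5. The group means were 161 ± 36.8 and 21.1 ± 13.8 RPKM (SD, n = 5 each), a 7.60-fold lower level and a log2 fold change of -3.25 (SE 0.43, adjusted p = 2.83e-05). Cxcl9 was the most abundant gene of the whole family in AdCMV livers and ranked 6 in AdVEGF livers.

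Cxcl10 had 63.1, 83.2, 119, 54.3 and 58.4 RPKM in the AdCMV mice and 16.6, 12.9, 12.6, 4.83 and 8.69 RPKM in the AdVEGF mice, in the same order. Its log2 fold change was -2.81 (SE 0.30, adjusted p = 3.16e-06). Cxcl11, the least abundant of the 3, had 3.76, 4.79, 7.15, 3.96 and 4.18 RPKM against 2.48, 2.05, 1.70, 1.56 and 0.753 RPKM, and a log2 fold change of -1.48 (SE 0.29, adjusted p = 0.00129). For each of the 3 ligands every AdVEGF mouse lay below every AdCMV mouse, which held for 1.29% of all genes tested. AdVEGF replicate 4 was the lowest mouse for Cxcl9 and Cxcl10, and replicate 5 for Cxcl11.

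The receptor itself was not called. Cxcr3 was low, at 0.430, 0.323, 1.03, 0.463 and 1.84 RPKM in the AdCMV mice and 0.666, 0.504, 0.446, 0.460 and 0.371 RPKM in the AdVEGF mice, which stands for 5 to 17 and 4 to 6 reads. The groups overlapped, with AdCMV replicates 3 and 5 above all other mice. The log2 fold change was -0.41 with a 95% interval from -1.29 to 0.47 (adjusted p = 0.477), so that neither a moderate fall nor a small rise could be told from no difference at this depth.

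Several T cell and cytotoxic genes were lower as well. Of 10 listed T and NK cell markers tested, 5 were called lower (Cd3e, Cd3g, Cd8a, Gzmb and Nkg7), where 1.54% of all genes tested were. Cd3d was called in addition after median-ratio scaling. Cd8b1, Gzma, Lck and Thy1, at log2 fold changes of -0.13 to -0.41, were not called. The summed level was 18.005 to 52.8 RPKM in AdCMV mice and 14.7 to 26.5 RPKM in AdVEGF mice, for all 13 listed. The NK cell receptor genes Ncr1 and Klrb1c were below the filter, with means of 0.113 and 0.196 RPKM in AdCMV mice and 0.377 and 0.320 RPKM in AdVEGF mice. No marker of the list was at 0 in every mouse. The part of these cells in the result for the CXCR3 ligands was not tested.

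**Figure D2:**
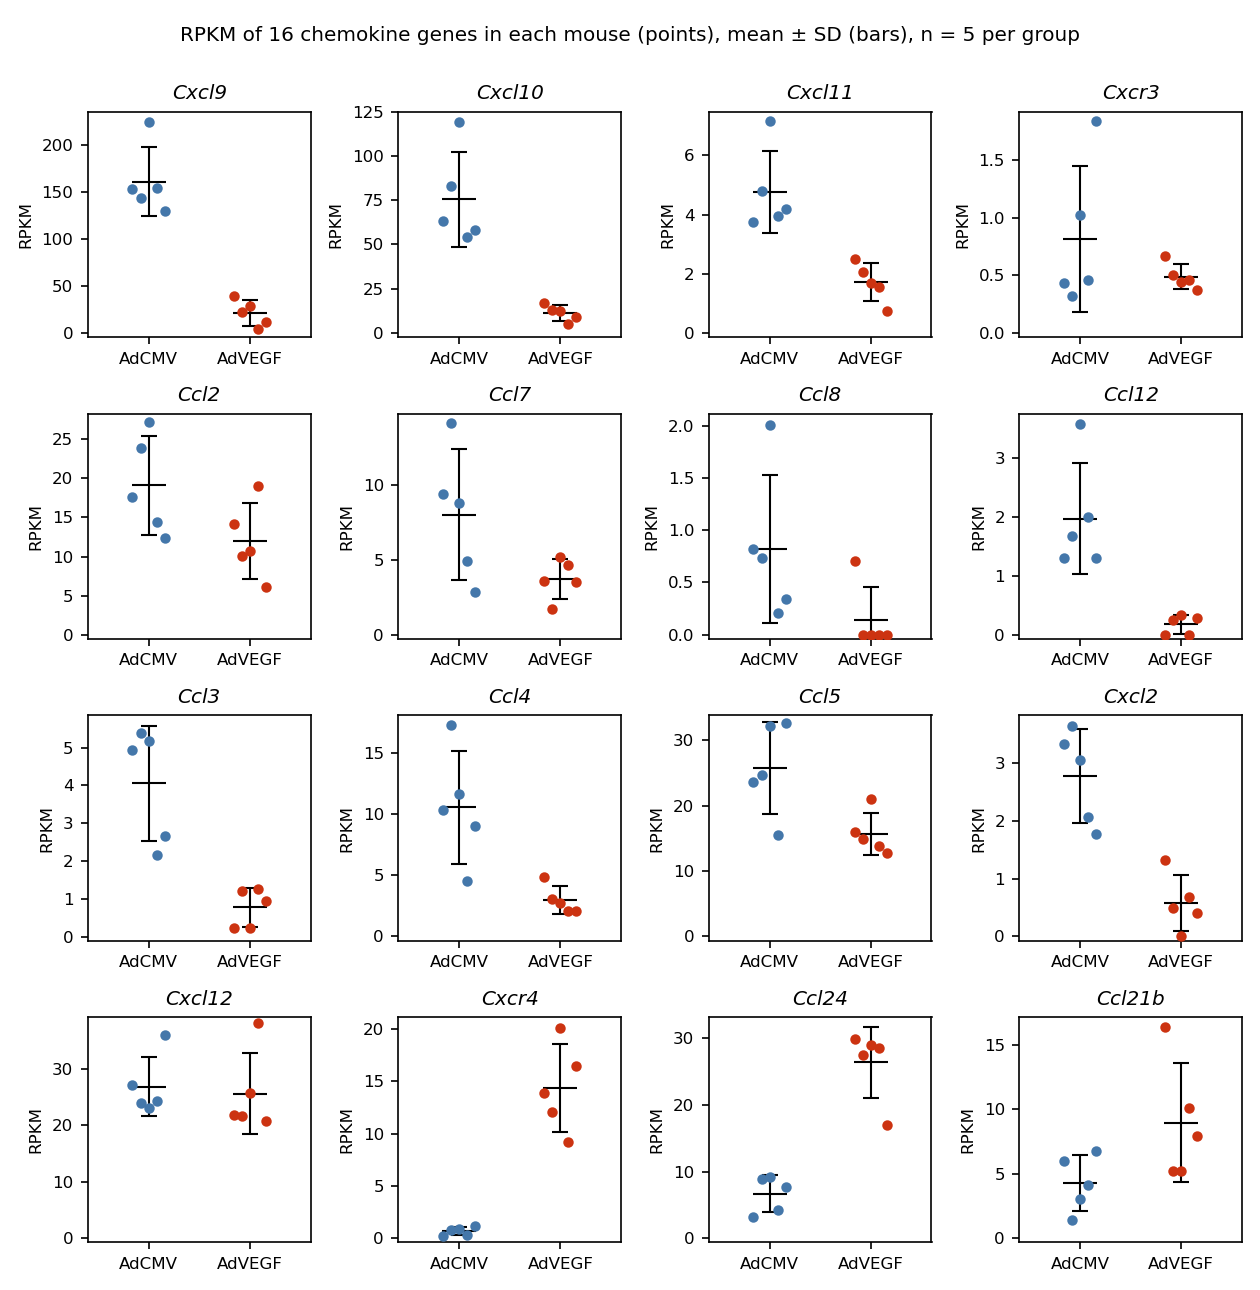
RPKM (y axis, linear, 1 scale per panel) of 16 genes in each mouse (points), by group, with the mean and SD as bars (n = 5 per group). Cxcl9, Cxcl10, Cxcl11, Ccl12, Ccl3 and Cxcl2 separate the groups downward and Cxcr4 and Ccl24 upward, whereas Cxcl12 and Cxcr3 overlap.

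The ligands of CCR2, the receptor that draws inflammatory monocytes into tissue, were all below their AdCMV means. Of the 4, 2 were called lower, where 1.54% of all genes tested were. Ccl12 had 1.30, 1.68, 3.59, 2.00 and 1.31 RPKM in the AdCMV mice and 0, 0.254, 0.336, 0 and 0.280 RPKM in the AdVEGF mice. Behind these values were 46 reads in all AdCMV mice together and 3 in all AdVEGF mice, a ratio of 11.7 per mapped tag with an exact 95% counting interval from 3.77 to 59.0. Its log2 fold change was -3.10 (SE 0.48, adjusted p = 0.00015), and no AdVEGF mouse reached an AdCMV mouse.

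Ccl8, which in the mouse also acts on CCR8, rested on few reads. It was measured at 0.819, 0.732, 2.01, 0.210 and 0.343 RPKM in the AdCMV mice and at 0.704 RPKM in AdVEGF replicate 1, and it was listed at 0 in the other 4 AdVEGF mice. With 18 reads against 2 the ratio per mapped tag was 6.88, with a counting interval from 1.65 to 61.2. Its log2 fold change of -2.29 (SE 0.66, adjusted p = 0.0194) lost its call without AdCMV replicate 1 (-2.21, adjusted p = 0.0535). The counting intervals and the depth limits cover counting error only.

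Ccl2, the main CCR2 ligand, was more abundant, with 17.6, 23.9, 27.3, 14.4 and 12.4 RPKM against 14.2, 10.1, 10.7, 19.0 and 6.12 RPKM. AdVEGF replicate 4 lay within the AdCMV range, and the log2 fold change was -0.70 (SE 0.29, adjusted p = 0.0857) and -1.10 after median-ratio scaling (adjusted p = 0.0102), where it was called. Ccl7 had 9.39, 14.2, 8.79, 4.94 and 2.84 RPKM against 3.59, 1.70, 5.18, 4.65 and 3.56 RPKM. Its log2 fold change was -0.98 (SE 0.37, adjusted p = 0.0664), and -1.37 and called after median-ratio scaling (adjusted p = 0.0330). It was also called without AdCMV replicate 5, the lowest mouse of its group (-1.29, adjusted p = 0.00969).

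Their receptor Ccr2 was not called. It had 5.13, 4.32, 7.26, 3.49 and 4.94 RPKM in the AdCMV mice and 5.07, 7.10, 4.49, 4.49 and 3.07 RPKM in the AdVEGF mice, ranges that overlapped almost fully. The log2 fold change of -0.062 had a 95% interval from -0.59 to 0.46 (adjusted p = 0.867), and its sign turned in some of the fits without 1 mouse.

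The macrophage inflammatory CC chemokines split by gene. Ccl3 and Ccl4, which attract monocytes and T cells, were called lower, whereas Ccl6 and Ccl9, myeloid CCR1 ligands that sit beside them on chromosome 11, were not called. Ccl3 had 4.93, 5.38, 5.17, 2.16 and 2.65 RPKM against 0.227, 1.201, 0.228, 1.25 and 0.946 RPKM, with no overlap and a log2 fold change of -2.43 (SE 0.43, adjusted p = 0.000529). Ccl4 had 10.3, 17.3, 11.6, 4.53 and 9.01 RPKM against 4.89, 3.08, 2.73, 2.07 and 2.04 RPKM. Only AdCMV replicate 4 and AdVEGF replicate 1 crossed, and the log2 fold change was -1.75 (SE 0.32, adjusted p = 0.000629).

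Ccl5, which T and NK cells make in large amounts, had 23.6, 24.7, 32.1, 15.5 and 32.7 RPKM in the AdCMV mice and 15.9, 14.8, 21.1, 13.8 and 12.7 RPKM in the AdVEGF mice. Of the AdCMV mice only replicate 4 lay inside the AdVEGF range. The adjusted p was 0.0357, but the log2 fold change of -0.69 (SE 0.23) did not reach the threshold. After median-ratio scaling it was -1.09 and was called.

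Ccl9 and Ccl6 were the 2 most abundant members in AdVEGF livers. Ccl9 had 28.9, 35.2, 45.9, 27.0 and 32.1 RPKM against 42.5, 41.04, 61.7, 39.5 and 32.8 RPKM, a log2 fold change of 0.36 (95% interval -0.088 to 0.80, adjusted p = 0.219) that was -0.045 after median-ratio scaling. Ccl6 had 13.9, 20.6, 29.4, 12.8 and 27.4 RPKM against 22.7, 24.3, 21.9, 52.6 and 11.8 RPKM, with AdVEGF replicate 4 far above the rest, and a log2 fold change of 0.27 (adjusted p = 0.559, -0.13 after median-ratio scaling). Neither gene differed beyond the spread between mice. Kupffer cells and macrophages are known to make several of these ligands. Of 11 of their markers tested, 3 were called higher, where 13% of all genes tested were (Clec4f, Vsig4 and Csf1r, the first 2 also after median-ratio scaling), none was lower, and the summed level was 145 to 315 RPKM in the AdCMV and 306 to 473 RPKM in the AdVEGF group. The part of these cells in the ligand values was not tested.

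Of the 5 CXCR2 ligands, which attract neutrophils, 3 were tested and 1 was called lower, where 1.54% of all genes tested were. Cxcl2 had 3.33, 3.65, 3.06, 2.07 and 1.77 RPKM in the AdCMV mice and 1.32, 0.5, 0, 0.685 and 0.414 RPKM in the AdVEGF mice, without overlap, from 11 to 53 and 0 to 8 reads. The log2 fold change was -2.45 (SE 0.52, adjusted p = 0.00247). Cxcl1, the more abundant ligand, had 24.5, 25.1, 19.5, 7.99 and 10.7 RPKM against 8.68, 10.9, 6.63, 21.0 and 9.30 RPKM. Its groups overlapped widely, and the log2 fold change was -0.61 (SE 0.34, adjusted p = 0.191). It was -1.01 after median-ratio scaling (adjusted p = 0.0607, limma) and -1.11 with library totals that left out the Mup genes, where it was called lower (adjusted p = 0.0320, limma). Cxcl5 was low, with means of 0.827 ± 1.11 and 0.364 ± 0.241 RPKM (SD, n = 5 each), and was not called.

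The receptor Cxcr2 had 17.7, 22.9, 30.7, 13.0 and 13.2 RPKM in the AdCMV mice and 20.3, 28.1, 27.9, 21.6 and 15.4 RPKM in the AdVEGF mice. The groups overlapped, with a log2 fold change of 0.26 (95% interval -0.27 to 0.80, adjusted p = 0.457) and -0.14 after median-ratio scaling. Of 6 neutrophil markers tested 3 were called higher, where 13% of all genes tested were (Camp, Elane and Ngp, the last 2 also after median-ratio scaling). All 3 were under 1 RPKM on average. The abundant S100a8 and S100a9 were not called, and the summed level of the list was 15.4 to 99.6 RPKM in the AdCMV and 16.3 to 195 RPKM in the AdVEGF group.

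Ccl24, or eotaxin-2, a ligand of CCR3 that attracts eosinophils and is made by macrophages, was called higher under every alternative run. It was measured at 3.23, 8.95, 9.19, 4.21 and 7.71 RPKM in the AdCMV mice and at 29.8, 27.5, 28.9, 28.4 and 16.9 RPKM in the AdVEGF mice. Every AdVEGF mouse exceeded every AdCMV mouse, although AdVEGF replicate 5 stood below the other 4, and the group means of 6.66 ± 2.76 and 26.3 ± 5.33 RPKM (SD, n = 5 each) differed 3.95-fold. The log2 fold change was 2.05 (SE 0.28, adjusted p = 4.65e-05) and 1.66 after median-ratio scaling. By level it ranked 17 in the family in AdCMV livers and 3 in AdVEGF livers. Its receptor Ccr3 had 0.468 ± 0.314 and 0.541 ± 0.104 RPKM (SD, n = 5 each) and was not called. The other CCR3 and CCR4 ligands of the list, Ccl11, Ccl17, Ccl22 and Ccl26, were below the filter, as was Ccl1, a ligand of CCR8.

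Among the chemokines of lymphoid organs, ligands of CCR7 that bring naive T cells and dendritic cells together, Ccl19 and the Ccl21 genes differed in sign. Ccl19 had 12.8, 11.6, 9.598, 13.7 and 10.7 RPKM in the AdCMV mice and 9.48, 9.05, 8.51, 9.30 and 5.83 RPKM in the AdVEGF mice. All AdVEGF mice lay below all AdCMV mice, but the difference was small, with a log2 fold change of -0.47 (SE 0.20, adjusted p = 0.0885), and -0.87 after median-ratio scaling (adjusted p = 0.0140), neither past the fold threshold.

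Ccl21b had 6.03, 1.44, 3.08, 4.11 and 6.74 RPKM against 16.4, 5.22, 5.20, 10.1 and 7.92 RPKM, and Ccl21c had 6.42, 1.38, 2.95, 3.94 and 6.45 RPKM against 15.7, 5.00, 4.98, 9.71 and 7.59 RPKM. In both genes 3 AdVEGF mice lay above all AdCMV mice. On the log2 scale the difference was 1.09 for Ccl21b (SE 0.38, adjusted p = 0.0459) and 1.06 for Ccl21c (adjusted p = 0.0552). Ccl21a had 2.34 ± 0.843 and 4.73 ± 2.16 RPKM (SD, n = 5 each) and a log2 fold change of 0.97 (adjusted p = 0.0334).

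These are near-identical copies. Ccl21b and Ccl21c share their start in the table (mm9, chromosome 4, 42391950), and the reads recovered for Ccl19, Ccl21a, Ccl21b and Ccl21c were even numbers in all 10 libraries, which held for 27 of 13166 transcripts with at least 100 reads. How the reads were divided among the copies is therefore uncertain, and the call of Ccl21b is not separate from that of its neighbours. It was lost after median-ratio scaling (0.70, adjusted p = 0.274) and without any 1 of AdCMV replicates 2, 3 or 4 or AdVEGF replicates 1, 4 or 5, with adjusted p from 0.0622 to 0.121. Because Ccl21a and Ccl21c pass or miss the same threshold, 5 members were called higher without AdCMV replicate 1 or 5 or AdVEGF replicate 2 or 3. Their receptor Ccr7 stayed below the filter, with 0.320 and 0.460 RPKM on average.

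Of the epithelial and mucosal chemokines, 5 of 7 were tested and none was called by limma or by voom on the recovered reads, with 1, Cxcl14, at an unadjusted p under 0.05. Ccl27a, a keratinocyte-type chemokine that signals through CCR10, had 12.4, 14.8, 18.1, 14.6 and 10.9 RPKM against 12.02, 19.9, 19.7, 10.5 and 14.1 RPKM, with a log2 fold change of 0.078 (adjusted p = 0.812). Its copy Ccl27b had 7.89, 7.41, 15.1, 8.08 and 6.20 RPKM against 2.54, 14.7, 17.4, 3.51 and 7.43 RPKM, with a log2 fold change of -0.27 (adjusted p = 0.666). In both genes, AdVEGF replicates 2 and 3 were high and replicates 1 and 4 low. Cxcl14 was uneven among the AdVEGF mice: it had 0.835, 0.937, 1.33, 0.875 and 1.34 RPKM in the AdCMV mice and 0.685, 5.70, 1.08, 16.1 and 1.88 RPKM in the AdVEGF mice. Its log2 fold change of 1.30 was not called (SE 0.60, adjusted p = 0.119), was called without AdVEGF replicate 1 (1.75, adjusted p = 0.0305), and was 0.66 without AdVEGF replicate 4, the highest mouse. Ccl20 and Ccl25 had group means between 0.149 and 1.92 RPKM.

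The largest difference of the family was in Cxcr4, the receptor of Cxcl12, which is known from stem cell homing, leukocyte traffic and the endothelial cells of sprouting vessels. It was measured at 0.229, 0.819, 0.841, 0.352 and 1.15 RPKM in AdCMV replicates 1 to 5 and at 13.9, 12.05, 20.1, 9.17 and 16.5 RPKM in AdVEGF replicates 1 to 5, from 3 to 20 and 135 to 204 reads. The lowest AdVEGF mouse stood well above the highest AdCMV mouse. The means were 0.678 ± 0.380 and 14.3 ± 4.20 RPKM (SD, n = 5 each), 21.1-fold apart, with a log2 fold change of 4.33 (SE 0.34, 95% interval 3.61 to 5.04, adjusted p = 1.61e-07) and 3.97 after median-ratio scaling. From rank 38 in AdCMV livers it went to rank 10.

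Its ligand Cxcl12, a product of stromal and endothelial cells, had 27.1, 23.9, 23.0, 24.2 and 35.9 RPKM in the AdCMV mice and 21.8, 21.7, 25.7, 38.2 and 20.8 RPKM in the AdVEGF mice. The ranges nearly coincided. The log2 fold change was -0.086 with a 95% interval from -0.53 to 0.36 (adjusted p = 0.779), and -0.49 after median-ratio scaling (adjusted p = 0.109). Cxcl12 held rank 4 in both groups.

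Endothelial markers moved with Cxcr4. All 11 were called higher, also after median-ratio scaling, with no overlap between the groups. Of all genes tested, 13% were called higher, and 7.77% were after median-ratio scaling. In 14.3% every AdVEGF value lay above every AdCMV value. The summed level of the endothelial markers was 29.0 to 60.8 RPKM in AdCMV mice and 304 to 370 RPKM in AdVEGF mice. Stellate cell and fibroblast markers, 7 of 8 called higher, went from 76.5 to 128 RPKM up to 198 to 401 RPKM. B cell markers, another known site of Cxcr4, were called higher in 3 of 5 (1 of 5 after median-ratio scaling), with 12.2 to 20.6 and 19.5 to 33.7 RPKM. None of these lists held a marker at 0 in every mouse, and their part in the rise of Cxcr4 was not tested.

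Apart from Cxcr4 no receptor was called by limma on the deposited values or by voom, with Cxcr6 called lower when library totals left out the Mup genes, and with 3 higher and none lower at an unadjusted p under 0.05 (Cxcr5, Xcr1 and Cx3cr1). Ccr4, a receptor of helper and regulatory T cells, had 6.997, 6.39, 8.66, 5.75 and 5.49 RPKM against 7.80, 9.58, 8.22, 4.15 and 6.67 RPKM, a log2 fold change of 0.094 (adjusted p = 0.783). The groups overlapped, and the sign turned after median-ratio scaling (-0.30).

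Xcr1, which marks cross-presenting dendritic cells, had 9.93, 13.0, 16.2, 14.9 and 13.7 RPKM in the AdCMV mice and 16.1, 19.6, 26.1, 24.6 and 13.8 RPKM in the AdVEGF mice, with a log2 fold change of 0.54 (SE 0.22, adjusted p = 0.0797). Its ligand Xcl1, a product of NK and CD8 T cells, had 1.72 ± 1.12 and 0.868 ± 0.832 RPKM (SD, n = 5 each), with a log2 fold change of -1.30 (SE 0.66, adjusted p = 0.152). Neither was called. Of 5 dendritic cell markers tested 2 were called higher, where 13% of all genes tested were (Clec9a and Zbtb46, the second also after median-ratio scaling). Itgax went the other way, with a log2 fold change of -0.62 and -0.99 after median-ratio scaling, and was not called. The summed level of the list was 5.16 to 14.5 and 12.3 to 18.3 RPKM, and the part of these cells in the Xcr1 values was not tested. Cx3cr1, the fractalkine receptor of monocytes and resident macrophages, had all AdVEGF mice above all AdCMV mice, at 1.87 to 3.69 and 3.70 to 6.32 RPKM. Its log2 fold change of 0.87 (SE 0.24, adjusted p = 0.0138) did not reach the fold threshold.

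Cxcl16, the membrane-bound ligand of CXCR6, had 4.64, 6.65, 8.89, 4.08 and 5.12 RPKM against 8.02, 8.88, 10.4, 10.1 and 5.90 RPKM, and a log2 fold change of 0.58 (SE 0.24, adjusted p = 0.0854). Cxcr6, found on liver-resident T and NKT cells, had 1.38 ± 0.719 and 0.739 ± 0.486 RPKM (SD, n = 5 each) and a log2 fold change of -0.94 (SE 0.48, adjusted p = 0.158). It was -1.28 after median-ratio scaling (adjusted p = 0.0594, limma) and was called lower with library totals that left out the Mup genes. Cxcr5, the B cell receptor of Cxcl13, had 0.746 ± 0.319 and 1.63 ± 1.07 RPKM (SD, n = 5 each) and a log2 fold change of 0.94 (adjusted p = 0.0900). Ccr1 and Ccr9, at group means of 0.539 to 1.23 RPKM, were not called.

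Below the filter were 16 members: Ccl1, Ccl11, Ccl17, Ccl22, Ccl26, Ccl28, Cx3cl1, Cxcl3, Cxcl13, Cxcl15, Cxcl17, Ccr6, Ccr7, Ccr8, Ccr10 and Cxcr1. Ccl17, Ccl26, Ccl28 and Ccr8 were at 0 in every mouse. For Ccl17, Ccl26 and Ccr8 any level was under the 3 reads that such a count allows per library. The deposited row of Ccl28 lies on 13_random and its promoter window on chromosome 13. Whether its count of 0 reflects its level was not tested. Cx3cl1, or fractalkine, and Ccr7 had the most reads of the untested genes, with 32 against 48 and 27 against 30 reads in all mice of the AdCMV and AdVEGF groups.

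The make-up of chemokine RNA as a whole shifted. Over 38 chemokines (Ccl21c was left out as it shares its position with Ccl21b) the summed level was 384 to 640 RPKM in the AdCMV mice, median 440, and 189 to 301 RPKM in the AdVEGF mice, median 290. The groups did not overlap. Cxcl9, Cxcl10 and Cxcl11 together were 46.0% to 55.3% of this sum in AdCMV livers and 3.52% to 20.1% in AdVEGF livers. Without these 3 genes the sum was 172 to 290 RPKM, median 225, and 168 to 290 RPKM, median 232, ranges that nearly coincided. Ccl24 went from 0.733% to 1.85% of the sum up to 8.94% to 10.4%, and Ccl9 from 6.56% to 7.70% up to 13.1% to 20.75%. These sums follow the scale of the library total.

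**Figure D3:**
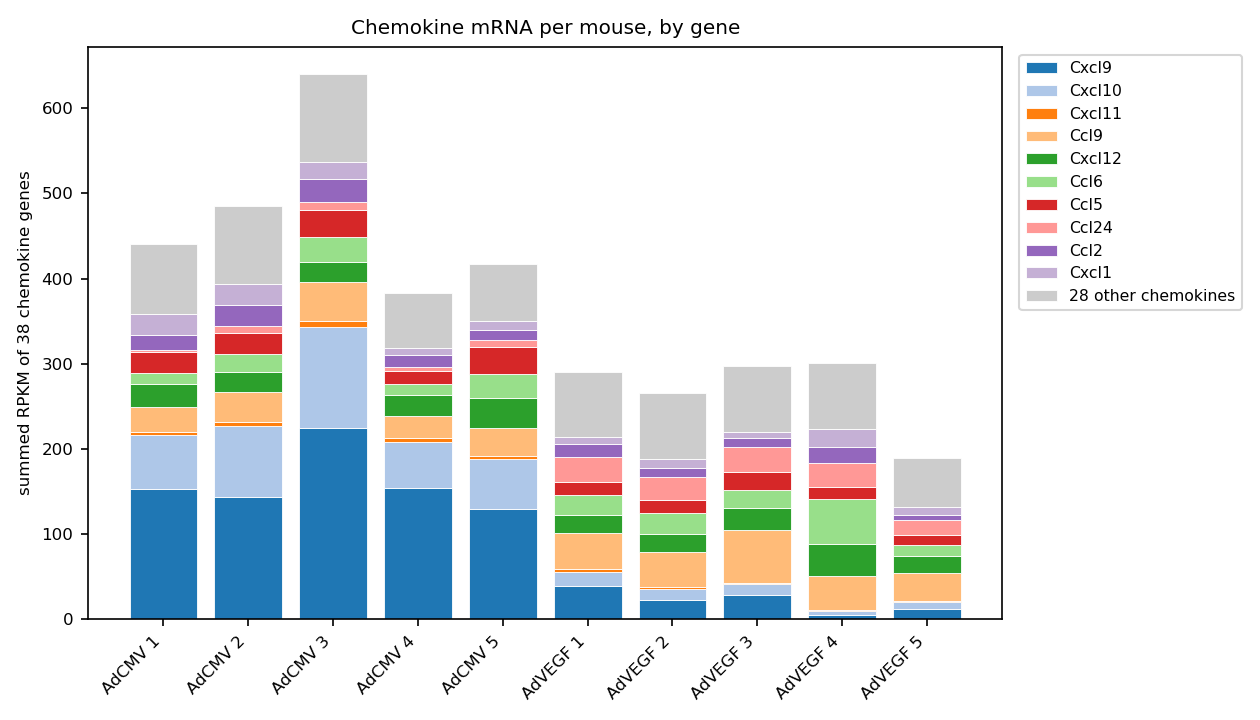
Summed RPKM of 38 chemokine genes in each mouse (y axis), for the 5 AdCMV and 5 AdVEGF mice (x axis). The stacked bars are split into 10 chosen chemokines, among them the low Cxcl11, and the other 28. Cxcl9 and Cxcl10, the lowest segments, are much shorter in the AdVEGF mice, whose bars reach 189 to 301 RPKM against 384 to 640 RPKM, and the Ccl24 segment is taller there.

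Chemokine genes lie in clusters, and 40 of the 57 had another member within 500 kb in the table (coordinates as deposited, mm9 per the processing notes). The cluster of Cxcl9, Cxcl10 and Cxcl11 (chromosome 5, 92750357 to 92792303) was called lower in all 3 genes. Its neighbour on the same chromosome (91188324 to 91334964), with Cxcl5, Cxcl3, Cxcl15, Cxcl1 and Cxcl2, had 1 of 3 tested genes called lower. On chromosome 11, 2 of 4 tested genes were lower in the CCR2 ligand cluster (81849079 to 81993314), as were 2 of 5 in the cluster of Ccl5, Ccl9, Ccl6, Ccl3 and Ccl4 (83339281 to 83478185). Of all genes tested, 1.54% were called lower. No gene of the other clusters was. In the cluster of Ccl19 and the Ccl21 genes on chromosome 4, 1 of 5 tested genes was called higher, and Ccl24 was in its cluster with Ccl26. In the receptor cluster on chromosome 9 (123676329 to 124041922), none of 7 tested genes was called by limma on the deposited values or by voom, with 1 higher at an unadjusted p under 0.05.

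Relatives outside the symbol rule were examined from a list of 14 symbols, which included older names of some genes. Of these symbols 10 had a row of values, and 9 were tested. Of the 9 tested, 5 were called higher, where 13% of all genes tested were, and none lower. The 5 were the atypical receptors Ackr1, Ackr2 and Ackr3, which take up chemokines without G protein signalling, and the platelet chemokines Pf4 and Ppbp. Ackr3, which binds Cxcl12 and Cxcl11, went from 0.210 ± 0.183 to 1.44 ± 0.608 RPKM (SD, n = 5 each), with a log2 fold change of 2.47 (adjusted p = 0.000782). Pf4 went from 3.46 ± 1.04 to 18.1 ± 7.47 RPKM, with a log2 fold change of 2.25 (adjusted p = 8.73e-05). After median-ratio scaling 4 of the 5 remained called, and Ackr1 was lost. Both platelet markers tested, Gp1bb and Itga2b, were also higher, with a summed level of the platelet list of 0.844 to 2.36 and 2.25 to 7.33 RPKM, and their part in the rise of Pf4 and Ppbp was not tested.

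Downstream of the receptors, 33 signalling genes were tested. Called higher were 7, or 21.2%, where 13% of all genes tested were. They were the G protein subunits Gnai2 and Gnb1, the arrestins Arrb1 and Arrb2, the kinase Grk6, the phospholipase Plcb3 and the regulator Rgs2. With median-ratio scaling all 7 lost the call. Among signalling genes of leukocytes, Dock2, Vav1 and Rac2 had log2 fold changes of 0.10 to 0.35. Lyn, Was, Pik3cg and Prex1 had 0.67 to 0.88, and Ptk2b had -0.13. None of these was called. The median over the 33 was 0.52, and 0.14 after median-ratio scaling, beside 0.38 and -0.0044 over all genes tested.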

How the data were processed

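Liver RNA of 10 mice, 5 per group, was sequenced. The authors mapped the reads with TopHat and deposited RPKM for RefSeq transcripts, normalized to the library total. The processing notes name mm9 and HOMER. The authors' own log fold change and FDR were not used. Samples were grouped by their labels. The members and all gene lists were chosen with earlier results of these data known. Named singly were all called members, those with a group mean over 5 RPKM and the CXCR3 axis, and a few genes are not reported here.

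Transcripts whose mean exceeded 0.5 RPKM in either group were analysed with limma (version 3.58.1, R 4.3.3; eBayes with a trend) on log2(RPKM + 0.1), with Benjamini-Hochberg adjustment over all 13933. Calls required an adjusted p below 0.05 with a log2 difference beyond 1 or -1. The paper's methods state these thresholds, and the test behind them is not given in the sources used here. The 5 rows without a symbol were left out. Reads were recovered from the RPKM steps: 99.9936% to 99.9939% of the values checked in a library were whole. Libraries of 1 group differed by at least 12.4 times counting noise. Fit and recovery were tested on simulated data. The alternatives were other scalings, pseudocounts and filters, 1 row per gene symbol, voom on the recovered reads, a block for the replicate number, and fits without each mouse. Promoter windows are from RefSeq (GRCm38.p6) and were not joined to mm9 coordinates.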

Additional observations from a re-analysis of the deposited data

Results flagged for a closer look

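In 5 of 82 combinations of a group and a tested member, 1 mouse lay apart from the other 4 of its group by Dixon's criterion (critical value 0.71 for 5 samples), which chance does in about 1 of 20 groups. Ccl19 was at 5.83 RPKM in AdVEGF replicate 5, with the next mouse at 8.51 RPKM. Ccl24 was at 16.9 RPKM in the same mouse, with the next at 27.5 RPKM. Ccl8 was at 0.704 RPKM in AdVEGF replicate 1, from 2 reads, and at 0 in the other 4 mice. Ccr9, a receptor of gut-homing lymphocytes, was at 0.940 RPKM in AdCMV replicate 3, with the next mouse at 0.512 RPKM, and at 1.53 RPKM in AdVEGF replicate 2, with the next at 0.662 RPKM.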

How the results depend on the processing

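Of the 11 called members, Cxcl9, Cxcl10, Cxcl11, Ccl12, Ccl3, Ccl4, Cxcl2, Ccl24 and Cxcr4 kept direction and call under all 20 alternatives. Ccl8 lost its call with a pseudocount of 1, with voom and without AdCMV replicate 1, and was below a filter at 1 RPKM. Ccl21b lost it under 11. The number called higher was 3, and 5 with voom, 5 with the replicate block and 2 to 5 without 1 mouse. The number called lower was 8, and 13 with library totals without the Mup genes and 7 to 9 without 1 mouse.

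The replicate numbers were not taken to pair the mice, since the deviations of same-numbered mice correlated at 0.0414 for number 1 and at 0.109 to 0.405 for the others, and not every mouse correlated best with its own number. The replicate block added Ccl21c and Cxcl14 to the higher calls and Xcl1 to the lower, 9 in all.

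Some log2 fold changes of genes that were not called changed sign. With median-ratio scaling, upper quartile scaling and totals that left out the Mup genes, they were -0.32, -0.28 and -0.42 for Ccl27a, -0.13, -0.088 and -0.23 for Ccl6, -0.045, -0.0013 and -0.15 for Ccl9, -0.30, -0.26 and -0.40 for Ccr4, and -0.14, -0.095 and -0.24 for Cxcr2. Without 1 mouse they ran from -0.029 to 0.20 for Ccl27a, -0.59 to 0.093 for Ccl27b, -0.017 to 0.52 for Ccl6, -0.21 to 0.086 for Ccr2, -0.016 to 0.28 for Ccr4 and -0.24 to 0.023 for Cxcl12. The cause was not tested. Depth limits Ccl12, Ccl8, Cxcr3 and the 16 untested genes.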
